A study of Mus musculus with 3 samples.

Results

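Pi16 Tnxb fibroblasts are fibroblasts that carry transcripts of Pi16, Tnxb, Sfrp4, Mfap5 and Fbn1. Of the 26953 cells in the 3 libraries, 1640 met the rule for them. A cell was a member when it had at least 3 unique molecular identifiers (UMIs, 1 per captured transcript) of Col1a1, Col3a1 and Pdgfra together, at least 3 UMIs of the 5 marker genes together, and more of those than of either competing set. The competing sets were Col12a1, Mmp11, Tnn and Tnc, which mark matrix-building fibroblasts, and Nos2, Tnfaip6, Saa3 and Cxcl5, which mark inflammatory fibroblasts. The values of these 16 genes therefore chose the cells, and they are given below as a description only.

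The cells came from full-thickness excisional wounds of 5 mm in the back skin of female mice of strain C57BL/6J, wounded at postnatal day 50, with a splint sutured around each wound. The AN-GelMA wound received 20 µL of gelatin methacryloyl (GelMA), a hydrogel set in place with ultraviolet light for 1 min, loaded with apoptotic neutrophils (AN). The GelMA wound received 20 µL of the gel without neutrophils, and the untreated wound, titled Sham, received none. Tissue with a 2 mm margin was taken on day 5, fixed and dissociated, and single cells were profiled with 10x Genomics GEM-X Flex v2, in which probes read transcripts of fixed cells. There is 1 library per group, the number of mice behind a library is not stated, and the margin brings uninjured skin into each. Treatment, animal and piece of tissue therefore cannot be told apart, no test between groups was possible, and brackets hold 95% intervals that cover counting error only. The AN-GelMA files carry the word Heat, which the labels do not explain. The heat shock genes Hspa1a and Hspa1b had 8 and 5 UMIs in AN-GelMA members, 1 and 4 in GelMA members and 7 and 12 in untreated members. With sums of 1267415, 423030 and 617726 member UMIs, these counts are too few to compare the libraries. What the word refers to was not tested.

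Fibroblasts of this kind lie around vessels and in the loose connective tissue of many organs, the dermis and the fascia beneath it included. They are often described as a reserve state, marked in mice by Pi16, Dpp4 and Cd34, from which more specialised fibroblasts can arise. In skin wounds, fibroblasts of the fascia are known to move into the wound and contribute to its matrix. Of the 5 marker genes, Pi16 encodes a secreted peptidase inhibitor, Tnxb the matrix glycoprotein tenascin X, Sfrp4 a secreted Wnt modulator, and Mfap5 and Fbn1 proteins of elastic microfibrils.

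Member cells numbered 948 in AN-GelMA, 253 in GelMA and 439 in the untreated wound, with medians of 1077.5, 1166 and 1129 UMIs per member. Their summed counts were 1267415, 423030 and 617726 UMIs, so that 1 UMI equals 0.789 CPM (counts per 1000000 UMIs of the summed members) in AN-GelMA, 2.36 CPM in GelMA and 1.62 CPM in the untreated library. The GelMA members stood apart in purity. Members that also held at least 3 UMIs of markers of another cell type (keratinocyte, hair-forming, leukocyte, endothelial, mural, glial, muscle or melanocyte sets), called mixed cells here, made up 11.7% of members in AN-GelMA, 30.8% in GelMA and 17.1% in the untreated library. They held 23.8%, 53.8% and 29.4% of the members' UMIs, in the same order of libraries. The 11 hair-forming markers with probes summed to 48.1 CPM in AN-GelMA members, 9281 CPM in GelMA members and 136 CPM in untreated members. In GelMA, 20 members with at least 10 hair-forming UMIs held 21.1% of all member UMIs. The 7 keratinocyte markers summed to 1906, 5413 and 2529 CPM and the 5 muscle markers to 122, 683 and 160 CPM in AN-GelMA, GelMA and untreated members. In the same order, the 11 leukocyte markers summed to 269, 236 and 325 CPM. The 5 endothelial markers summed to 41.8, 40.2 and 59.9 CPM and the 5 mural markers to 93.9, 118 and 93.9 CPM. Of these, only Vwf, an endothelial marker, in AN-GelMA and GelMA members and Rgs5, a mural marker, in GelMA members were at 0. Results that involve GelMA are therefore given for all members and also without mixed cells, which leaves 837 AN-GelMA, 175 GelMA and 364 untreated members, and a GelMA UMI is then worth 5.12 CPM. Of the cell barcodes, 135 occurred in both AN-GelMA and GelMA, 94 in both AN-GelMA and untreated and 107 in both GelMA and untreated; among members 1, 1 and 0 were shared.

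Pi16 Tnxb fibroblasts took a much smaller part of the GelMA library than of either other library. They were 9.86% of cells in AN-GelMA (9.27 to 10.5%), 2.24% in GelMA (1.97 to 2.53%) and 7.27% in the untreated wound (6.63 to 7.95%). Cells with any fibroblast identity were also scarcer in GelMA: 2387 AN-GelMA, 998 GelMA and 1402 untreated cells passed the collagen and Pdgfra gate. Within the gate the shares lay closer together, at 39.7% in AN-GelMA (37.7 to 41.7%), 25.4% in GelMA (22.7 to 28.2%) and 31.3% in the untreated wound (28.9 to 33.8%). Thinning each cell to 800 UMIs, which leaves out 2318 AN-GelMA, 1970 GelMA and 1117 untreated cells, gave 7.38%, 1.33% and 6.36% of cells. Without mixed cells the shares were 8.71%, 1.55% and 6.03%. The order of the libraries, AN-GelMA highest and GelMA lowest, held in each of these counts. How far tissue sampling and the recovery of cells set these shares was not tested.

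**Figure D1:**
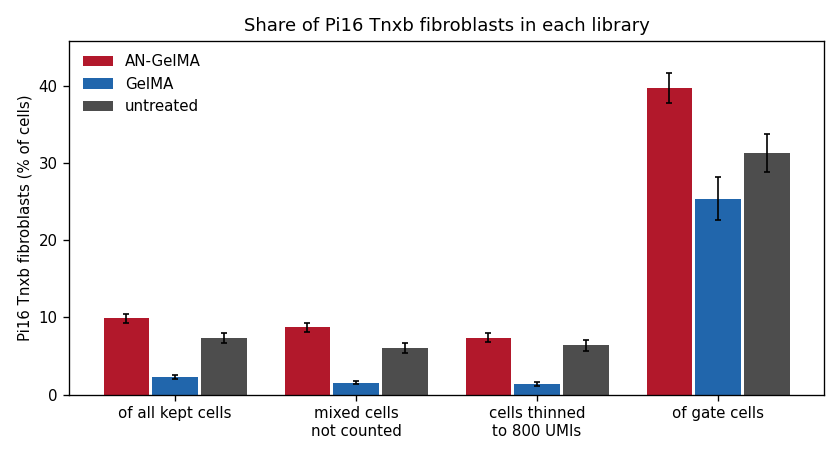
Pi16 Tnxb fibroblasts as a percentage of cells in the AN-GelMA, GelMA and untreated libraries, with 95% exact binomial intervals for counting error. The 4 clusters of bars use all kept cells, members without mixed cells, cells thinned to 800 UMIs, and cells that pass the fibroblast gate; of all kept cells AN-GelMA has 9.86%, GelMA 2.24% and the untreated library 7.27%, and GelMA is lowest in each cluster.

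Against the other fibroblasts, members outnumbered matrix-building fibroblasts in each library. Matrix-building cells, chosen by the mirror rule, numbered 425 in AN-GelMA, 153 in GelMA and 240 in the untreated wound, which gives 2.23, 1.65 and 1.83 members per matrix-building cell. Inflammatory fibroblasts numbered 269 in AN-GelMA, 28 in GelMA and 153 in the untreated wound, or 3.52, 9.04 and 2.87 members for each of them. The 28 inflammatory cells of GelMA are too few for firm levels, and comparisons with them are descriptions of those cells.

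Of the marker genes that made the rule, Pi16, Tnxb and Fbn1 were seen in most members of every library. Pi16 stood at 2432 CPM in AN-GelMA, 2040 CPM in GelMA and 1951 CPM in untreated members, and 63.7%, 58.5% and 55.4% of members had a Pi16 UMI. Keratinocytes, which should lack it, had a Pi16 UMI in 7.61%, 5.93% and 9.12% of cells at medians of 1715, 2239.5 and 1727 UMIs. Tnxb was at 1332 CPM in AN-GelMA, 1376 CPM in GelMA and 965 CPM in untreated members. Sfrp4, Mfap5 and Fbn1 were all lowest in GelMA members: Sfrp4 at 567, 239 and 580 CPM, Mfap5 at 1049, 655 and 1017 CPM and Fbn1 at 1513, 877 and 1528 CPM in AN-GelMA, GelMA and untreated members. At least 3 of the 5 genes were present in 63.9% of AN-GelMA, 47.0% of GelMA and 57.6% of untreated members. Cells with both Pi16 and Tnxb numbered 390 in AN-GelMA, 99 in GelMA and 152 in the untreated wound, and cells with neither numbered 140, 30 and 96. At the threshold, 131 AN-GelMA, 55 GelMA and 77 untreated members had exactly 3 marker UMIs, and 110, 97 and 92 cells with 2 UMIs stayed outside. Cd34, a surface protein of this kind of fibroblast that the rule did not use, was at 300.3 CPM just inside and 191 CPM just outside in AN-GelMA, at 165 and 206 CPM in GelMA, and at 311 and 232 CPM in the untreated library.

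Genes outside the rule separated members from matrix-building fibroblasts in the same library. Among 5653 genes, 152 (2.69%) were at least 2 times higher in members in all 3 libraries and 66 (1.17%) at least 2 times lower; without mixed cells the counts were 191 and 100. Over inflammatory fibroblasts the counts were 77 (1.36%) and 67 (1.19%), and 86 and 92 without mixed cells. The rule chose the cells from their own counts, so these are descriptions without a test. Of 13 measured genes of a list of adventitial and interstitial fibroblast genes, 12 were at least 2 times higher than in matrix-building cells in all 3 libraries, with median log2 ratios of 3.01 in AN-GelMA, 2.47 in GelMA and 2.91 in the untreated library, against -0.05, -0.03 and -0.02 over all genes. Of 7 complement and homeostatic chemokine genes, 5 were higher in the same way. Of 15 contractile and myofibroblast genes, 7 were lower and 1 was higher, with medians of -1.92, -0.89 and -1.43. These list differences were larger against matrix-building cells than against inflammatory ones. Over inflammatory fibroblasts, 5 of the 13 adventitial genes were higher in all 3 libraries and 1 lower. Their median log2 ratios there were 0.82 in AN-GelMA, 1.37 in GelMA and 1.23 in the untreated library. The medians over all genes were 0.04, -0.02 and 0.11. Of the 7 complement and homeostatic chemokine genes, 0 were higher and 0 lower there. Of the 15 contractile genes, 2 were higher and 1 lower there, with medians of -0.12, 0.25 and 0.14.

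Abca8a, a transporter of the ABC family, stood furthest above the other fibroblasts: it was at 132 CPM in AN-GelMA members, against 4.14 CPM in matrix-building and 5.32 CPM in inflammatory cells. In GelMA it was at 312 CPM in members against 9.49 and 20.1 CPM, and in the untreated wound at 162 CPM against 13.5 and 19.1 CPM. Eln, which encodes elastin, was at 527 CPM in AN-GelMA members, against 29.0 CPM in matrix-building and 16.0 CPM in inflammatory cells. Its members' levels were 619 CPM in GelMA and 346 CPM in the untreated wound, against 91.7 and 35.2 CPM in the matrix-building cells of those libraries. Scara5, a ferritin receptor, Ebf2, a transcription factor of fat and stromal precursors, and Npr1, the receptor of atrial natriuretic peptide, followed the same pattern. Fap, a protease often used as a mark of activated fibroblasts, was also higher in members, at 234, 324 and 207 CPM in AN-GelMA, GelMA and untreated members against 56.5, 47.4 and 62.3 CPM in matrix-building cells. On the other side stood Runx1, a transcription factor, at 260 CPM in AN-GelMA members against 775 CPM in matrix-building cells, at 177 against 427 CPM in GelMA and at 243 against 656 CPM in the untreated wound. Ccn1, a matricellular protein, was at 518 against 1956 CPM in AN-GelMA, 326 against 1404 CPM in GelMA and 377 against 1758 CPM in the untreated wound. Ccbe1, a matrix protein needed for lymphatic growth, was at 59.2 against 457 CPM, 54.4 against 262 CPM and 92.3 against 542 CPM in the same 3 libraries.

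**Figure D2:**
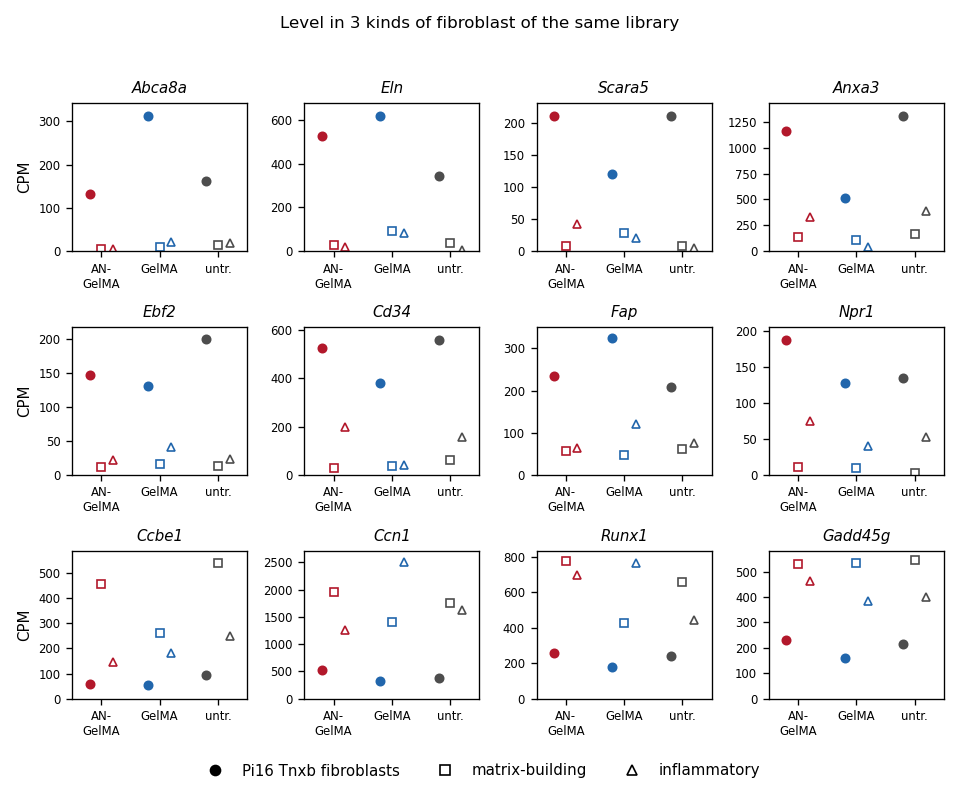
Levels in CPM of 12 genes in Pi16 Tnxb fibroblasts (filled circles), matrix-building fibroblasts (open squares) and inflammatory fibroblasts (open triangles) of each library, each point being 1 sum over the cells of a library. The first 8 genes are higher in members in each library, such as Eln at 527, 619 and 346 CPM in AN-GelMA, GelMA and untreated members, and the last 4 are lower.

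The members were not uniform. Without mixed cells, 530 AN-GelMA, 100 GelMA and 201 untreated members had a Pi16 UMI and 307, 75 and 163 had none (medians of 922.5 and 1152 UMIs in AN-GelMA, 994.5 and 1003 in GelMA, 1066 and 1076 in the untreated library). Of 5698 genes outside the rule, 99 (1.74%) were at least 1.5 times higher in the cells with Pi16 in all 3 libraries and 91 (1.6%) at least 1.5 times lower. Of 18 adventitial and interstitial genes, 10 were higher and 0 lower. Of 13 contractile genes, 7 were lower and 1 higher; of 5 cell cycle genes, 3 were lower; of 16 collagens, 4 were lower and 1 higher. Some of these calls rest on few GelMA UMIs. With and without Pi16, Cdk1 and Kif11 each had 1 and 3 of them, Col24a1 1 and 2 and Tagln 3 and 17. Since Pi16 is 1 of the 5 genes of the rule, a cell without it needed more UMIs of the other 4, and no test is given.

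Dpp4, a surface peptidase, was at 922 CPM in cells with Pi16 against 373 CPM in cells without it in AN-GelMA. It was at 499 against 70.5 CPM in GelMA, from 55 and 6 UMIs, and at 761 against 337 CPM in the untreated wound. Eln differed likewise, at 960.0 against 162 CPM, 1190 against 728 CPM and 657 against 215 CPM in AN-GelMA, GelMA and the untreated wound. Timp1, an inhibitor of metalloproteinases, had the opposite pattern, at 75.2 against 230.5 CPM in AN-GelMA, 36.3 against 106 CPM in GelMA, from 4 and 9 UMIs, and 34.6 against 97.6 CPM in the untreated wound. Postn, a matrix protein of activated fibroblasts, was at 326 against 584 CPM in AN-GelMA, 518 against 1245 CPM in GelMA and 463 against 918 CPM in the untreated wound. Top2a, a topoisomerase of dividing cells, was at 93.1 against 282 CPM, 18.2 against 141 CPM and 125 against 366 CPM in the same 3 libraries. Its GelMA values came from 2 and 12 UMIs.

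**Figure D3:**
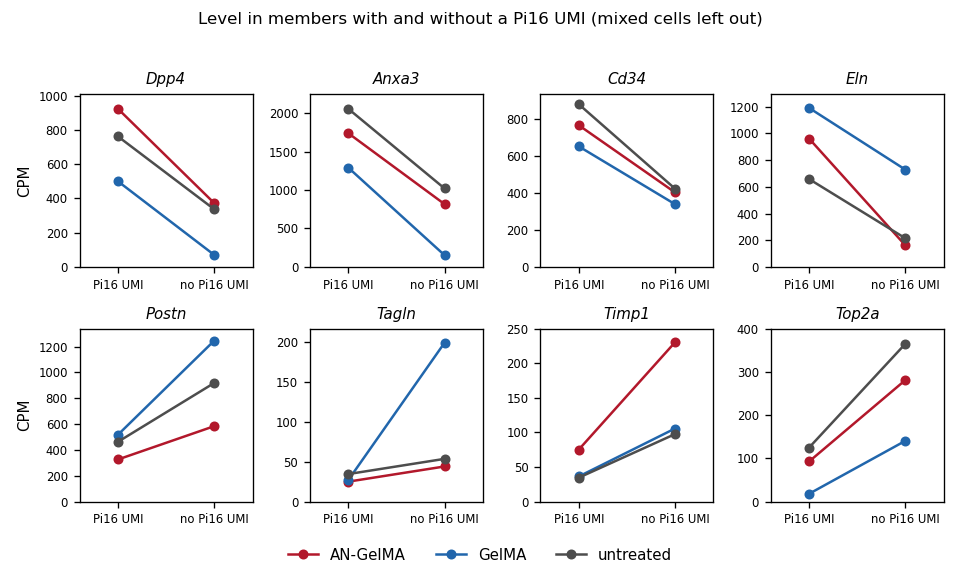
Levels in CPM of 8 genes in members with a Pi16 UMI (left points) and without one (right points), mixed cells left out, with 1 line per library. Dpp4, Anxa3, Cd34 and Eln are higher in members with Pi16 in all 3 libraries, and Postn, Tagln, Timp1 and Top2a are lower, for example Timp1 at 75.2 against 230.5 CPM in AN-GelMA. Tagln rests on few UMIs, with 14 against 18 in AN-GelMA, 3 against 17 in GelMA and 8 against 11 in the untreated library.

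The first comparison sets AN-GelMA against GelMA, which by label differ in the apoptotic neutrophils. Neutrophils, animal and piece of tissue cannot be told apart in it. In Pi16 Tnxb fibroblasts the AN-GelMA library had more transcript of interferon-induced genes, of 10 of 18 adventitial genes, of Fn1 and of 8 of 15 glycolysis and hypoxia genes. It had less of Col4a1, Lpl, Fmo1, Ccl19 and Cxcl12. Of 5711 genes with a mean of at least 50 CPM over the 3 libraries, 746 (13.1%) were at least 1.5 times higher and 845 (14.8%) at least 1.5 times lower. Without mixed cells 5418 genes passed the minimum, and 715 (13.2%) were higher and 814 (15%) lower. The median log2 ratio over all genes was -0.02. The 3 comparisons between libraries share libraries and are not independent of each other.

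Interferon-induced genes formed the list with the most lopsided count. Of its 13 measured genes, 12 were at least 1.5 times higher in AN-GelMA and 0 lower, with a median log2 ratio of 0.97; without mixed cells 12 of 15 were higher and 0 lower, with a median of 0.89. Oasl2, an antiviral protein of the oligoadenylate synthetase family, had 1416 UMIs in AN-GelMA, 142 in GelMA and 573 in untreated members, which is 1117 CPM, 336 CPM and 928 CPM. The log2 ratio of AN-GelMA over GelMA was 1.73 (1.49 to 1.99), and 1.31 without mixed cells. Only the GelMA level lay apart by more than 1.5 times. Rsad2, the antiviral enzyme viperin, was at 194 CPM in AN-GelMA, 44.9 CPM in GelMA and 173 CPM in untreated members, from 246, 19 and 107 UMIs. It came from few cells, 91, 9 and 31 of them, with up to 28 UMIs in a single untreated cell. Oas1a, an oligoadenylate synthetase, was at 327, 125 and 267 CPM, and Bst2, the membrane protein tetherin that holds back budding virus, at 156, 61.5 and 105 CPM in AN-GelMA, GelMA and untreated members. Zbp1, a sensor of Z-form nucleic acid, was at 523 CPM in AN-GelMA, 132 CPM in GelMA and 448 CPM in untreated members, and at 592, 174 and 527 CPM without mixed cells. In GelMA members these genes were low whether or not mixed cells were counted.

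Part of the promoters of these genes carried the letters of an interferon-stimulated response element core, and 3 are shown because their genes are the ones described above. The motif GAAANNGAAA was searched on both strands, overlapping matches included, in the 250 bases before each gene's start in RefSeq windows of build GRCm38.p6. It was found in 978 of 32851 windows (2.98%) and in 138 of 4582 measured genes with a window (3.01%). Of the 12 interferon genes higher in AN-GelMA, 9 had a window and 6 of those held the motif, while Oasl2, Xaf1 and Irf7 had none in it. In the stretches below, 5′ to 3′ on the gene's strand, capitals mark the motif or its reverse complement TTTCNNTTTC.
Oas1a: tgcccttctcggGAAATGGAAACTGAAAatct
Rsad2: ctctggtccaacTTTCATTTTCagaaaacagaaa
Bst2: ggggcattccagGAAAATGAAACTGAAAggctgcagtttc
The Oas1a stretch is chr5:120907526-120907557 on the minus strand, and its 2 overlapping matches end 5 bases before the start. The Rsad2 stretch is chr12:26456551-26456584 on the minus strand, and the Bst2 stretch, again with 2 overlapping matches, is chr8:71537575-71537614 on the minus strand. These are matches of letters and say nothing on whether a factor was bound.

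Adventitial and interstitial genes were next: 10 of 18 were higher in AN-GelMA and 0 lower, with a median log2 ratio of 0.73. Without mixed cells 6 of 18 were higher and 0 lower and the median was 0.35. Dpp4 was at 593 CPM in AN-GelMA, 206 CPM in GelMA and 442 CPM in untreated members, and at 690, 312 and 562 CPM without mixed cells. Sema3c, a secreted guidance protein, was at 451, 175 and 367 CPM. Ackr3, a scavenger receptor for Cxcl12, was at 283 CPM in AN-GelMA, 73.3 CPM in GelMA and 162 CPM in untreated members. Anxa3, a phospholipid-binding annexin, was at 1165, 511 and 1308 CPM for all members and at 1349, 794 and 1569 CPM without mixed cells. Cd34 differed less, at 529 CPM in AN-GelMA, 381 CPM in GelMA and 562 CPM in untreated members. The GelMA members were lowest for each of these genes, and AN-GelMA and untreated members lay within 1.5 times of each other for all but Ackr3.

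**Figure D4:**
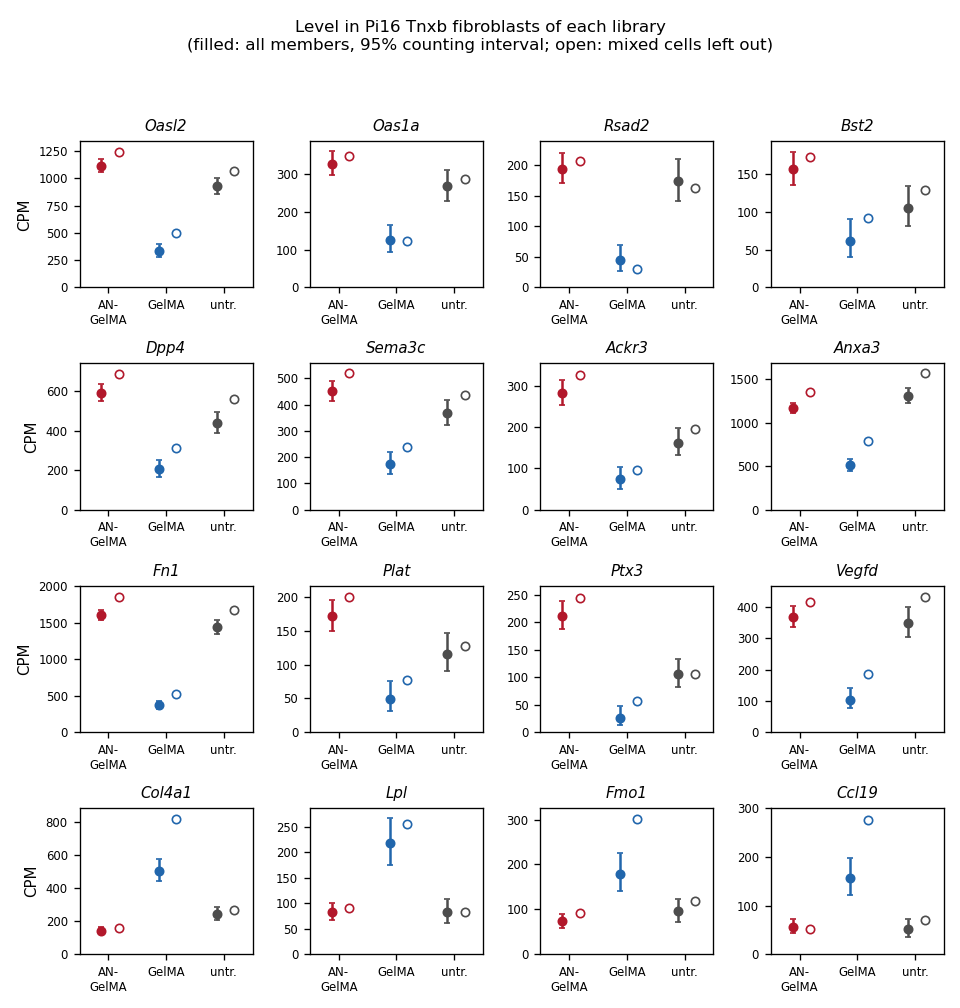
Levels in CPM of 16 genes in the Pi16 Tnxb fibroblasts of the AN-GelMA, GelMA and untreated libraries; filled points with bars are all members with a 95% exact Poisson interval, and open points leave out mixed cells. In the first 12 genes GelMA is lowest, such as Oasl2 at 1117, 336 and 928 CPM in AN-GelMA, GelMA and untreated members, and in the last 4 it is highest, such as Col4a1 at 508 CPM.

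Matrix genes differed in both directions. Fn1, which encodes fibronectin, had 2037 UMIs in AN-GelMA, 155 in GelMA and 886 in untreated members, or 1607, 366 and 1434 CPM, with a log2 ratio of AN-GelMA over GelMA of 2.13 (1.90 to 2.38) and 1.84 without mixed cells. Of 16 collagens, 5 were higher in AN-GelMA and 3 lower for all members, and 2 were higher and 5 lower without mixed cells, so the balance of the list turned with the mixed cells. Col24a1, a fibrillar collagen, was at 128 CPM in AN-GelMA, 18.9 CPM in GelMA and 125 CPM in untreated members. Col4a1, a basement membrane collagen, went the other way, at 140 CPM in AN-GelMA, 508 CPM in GelMA and 244 CPM in untreated members, and at 156, 819 and 268 CPM without mixed cells. Eln was within 1.5 times between AN-GelMA and GelMA for all members, at 527 and 619 CPM, and at 623 and 988 CPM without mixed cells, where GelMA was higher. Among 17 elastic fibre and crosslinking genes, 7 were higher and 1 lower for all members and 5 were higher and 4 lower without mixed cells. Ltbp4, which anchors latent TGF beta to elastic fibres, was at 46.6 CPM in AN-GelMA, 196 CPM in GelMA and 79.3 CPM in untreated members. Among 14 proteoglycan and hyaluronan genes 4 were higher and 4 lower; the small proteoglycan Podn was at 402, 619 and 330.2 CPM in AN-GelMA, GelMA and untreated members and at 482, 1040 and 417 CPM without mixed cells.

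Proteases and their inhibitors were higher in AN-GelMA more often than lower, 10 against 1 of 23, with a median log2 ratio of 0.52, and 6 against 2 with a median of 0.24 without mixed cells. Plat, the tissue plasminogen activator, was at 172 CPM in AN-GelMA, 49.6 CPM in GelMA and 117 CPM in untreated members. Adamts2, the enzyme that trims the amino end of procollagens, was at 208 CPM in AN-GelMA, 104 CPM in GelMA and 185 CPM in untreated members. Timp1 was at 117, 40.2 and 53.4 CPM, and here AN-GelMA was above both other libraries.

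Among signals, 7 of 12 inflammatory cytokine and NF-kB genes were higher in AN-GelMA and 1 lower, with a median log2 ratio of 0.65, and 6 of 14 were higher and 1 lower without mixed cells, with a median of 0.32. Ptx3, a long pentraxin that binds microbes and matrix, was at 212 CPM in AN-GelMA, 26.0 CPM in GelMA and 105 CPM in untreated members, with a log2 ratio of AN-GelMA over GelMA of 3.03 (2.17 to 4.05). Only 6 GelMA members held its 11 UMIs. Ccl7, a chemokine that draws monocytes, was at 297, 87.5 and 210.4 CPM, and Il4ra, a receptor subunit for interleukins 4 and 13, at 457, 175 and 321 CPM in AN-GelMA, GelMA and untreated members. Of 19 growth factor and TGF beta genes, 7 were higher and 1 lower, and 6 of 21 higher and 5 lower without mixed cells. Hgf, a growth factor for epithelial cells, was at 104 CPM in AN-GelMA, 30.7 CPM in GelMA and 92.3 CPM in untreated members. Vegfd, a growth factor for lymphatic vessels, was at 368, 104 and 350 CPM.

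Complement and homeostatic chemokine genes divided, with 2 of 9 higher and 4 lower in AN-GelMA. The complement gene C4b was at 1815 CPM in AN-GelMA, 820.3 CPM in GelMA and 1533 CPM in untreated members. Cxcl12, which retains and attracts leukocytes and progenitor cells, was at 303, 589 and 366 CPM, and Ccl19, which attracts dendritic cells and T cells through Ccr7, at 56.8, 156 and 51.8 CPM in AN-GelMA, GelMA and untreated members. Both chemokines were highest in GelMA, and without mixed cells Ccl19 was at 51.8, 277 and 71.1 CPM. In AN-GelMA, GelMA and the untreated library Ccl19 came from 43, 33 and 18 members.

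Genes of deep dermal and lipid-handling fibroblasts were more often lower than higher in AN-GelMA against GelMA. Of 11 measured, 2 were higher, 5 lower and 4 within 1.5 times with a median log2 ratio of -0.31, and of 12 without mixed cells 2 were higher and 7 lower with a median of -1.06. Lpl, lipoprotein lipase, was at 82.8 CPM in AN-GelMA, 217 CPM in GelMA and 82.6 CPM in untreated members. The 3 adipocyte markers Plin1, Cidec and Adipoq, which are not among the sets that define mixed cells, summed to 6.31 CPM in AN-GelMA, 30.7 CPM in GelMA and 4.86 CPM in untreated members, with Adipoq at 0 in GelMA and untreated members. Without the members that hold at least 3 such UMIs, which were 1 in AN-GelMA, 1 in GelMA and 0 in the untreated library, Lpl was at 83.3, 205 and 82.6 CPM. Fmo1, a flavin monooxygenase, was at 73.4 CPM in AN-GelMA, 180 CPM in GelMA and 95.5 CPM in untreated members. Mgp, an inhibitor of mineralisation, was at 43.4 CPM in AN-GelMA, 92.2 CPM in GelMA and 38.9 CPM in untreated members. Ccn3, a matricellular protein on the same list, ran opposite, at 217, 37.8 and 178 CPM.

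Glycolysis and hypoxia genes were higher in AN-GelMA in 8 of 15 cases and lower in 0, with a median log2 ratio of 0.60, and in 7 of 15 without mixed cells, with a median of 0.55. In members with a Pi16 UMI the median was 0.24. Hk2, a hexokinase, was at 216 CPM in AN-GelMA, 104 CPM in GelMA and 188 CPM in untreated members, and Pkm, pyruvate kinase, at 198, 94.6 and 167 CPM. P4ha2, a collagen prolyl hydroxylase on the hypoxia list, was at 286 CPM in AN-GelMA, 135 CPM in GelMA and 280.1 CPM in untreated members. Of the 5 cell cycle genes measured, 3 were higher and 1 lower with a median of 0.61. Without mixed cells 4 were higher and 0 lower with a median of 1.78, whereas in members with a Pi16 UMI the median turned to -0.14. The median of 1.78 rests on few GelMA UMIs. With mixed cells left out, Cdk1 and Kif11 each had 1 UMI in GelMA members with Pi16 and 3 in those without it. Ccnb2 had 3 and 1 there. Top2a was at 163, 130.0 and 225 CPM in AN-GelMA, GelMA and untreated members, and Cdk1, the mitotic kinase, at 68.6, 44.9 and 115 CPM.

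Of the remaining lists, contractile and myofibroblast genes were higher in AN-GelMA in 1 and lower in 4 of 13 cases, immediate early and heat shock genes in 5 and 4 of 19, Wnt modulators in 3 and 3 of 9, adipocyte and fat precursor genes in 1 and 3 of 7, secretory pathway genes in 2 and 1 of 10 and papillary dermis genes in 0 and 2 of 3. Tagln, an actin-binding protein of contractile cells, was at 31.6 CPM in AN-GelMA, 78.0 CPM in GelMA and 42.1 CPM in untreated members. Without mixed cells the contractile counts were 3 higher and 4 lower, and Runx1 on that list was then at 269, 87.1 and 273 CPM. These lists had median log2 ratios between -0.33 and 0.12 for all members, apart from the 3 papillary genes at -1.49.

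Outside the lists, the genes with the clearest excess in AN-GelMA over GelMA, ranked by the bound of the counting interval nearest to 0, were led by Akr1c18, an aldo-keto reductase that inactivates progesterone. It had 88 UMIs in 59 AN-GelMA members, 1 UMI in GelMA members and 49 UMIs in 36 untreated members, which is 69.4, 2.36 and 79.3 CPM. Chrdl1, an antagonist of bone morphogenetic proteins, had 95, 3 and 42 UMIs, or 75.0, 7.09 and 68.0 CPM. Osr2, a transcription factor, was at 131 CPM in AN-GelMA, 21.3 CPM in GelMA and 82.6 CPM in untreated members. P4ha3, a collagen prolyl hydroxylase, was at 245, 56.7 and 196 CPM, and Trim30a, an interferon-inducible protein, at 323, 68.6 and 215 CPM. All of these were low in GelMA members and within 1.5 times between the other libraries, apart from Osr2 and Trim30a.

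The genes with the clearest deficit in AN-GelMA against GelMA were in large part hair and epidermal genes. Tchh, trichohyalin of the inner root sheath, had 20 UMIs in AN-GelMA, 2541 in GelMA and 46 in untreated members, but a single GelMA cell held 1711 of them, and without mixed cells it was at 7.25, 205 and 29.8 CPM. Krt71, Krt40, Krt16, Capn8 and Sprr1b were on the same list, with 536 of 748 GelMA UMIs of Krt71 and 64 of 68 of Krt40 in 1 cell each. Without mixed cells Krt71 was at 2.07 CPM in AN-GelMA, 92.2 CPM in GelMA and 9.17 CPM in untreated members. Krt40, a hair keratin that is not among the hair-forming markers, was then at 333 CPM in GelMA members, against 161 CPM in all of them, and at 0 in AN-GelMA and untreated members. Tnnt1, a muscle troponin, had 39 of its 55 GelMA UMIs in 1 cell. Lepr and Adamts18 were spread over more cells, with at most 11 and 22 of their GelMA UMIs in 1 cell. Lepr, the leptin receptor, was at 10.3 CPM in AN-GelMA, 144 CPM in GelMA (61 UMIs in 30 members) and 24.3 CPM in untreated members, and at 10.4, 164 and 22.9 CPM without mixed cells. Adamts18, a protease of the ADAMTS family, was at 3.95, 295 and 4.86 CPM in AN-GelMA, GelMA and untreated members, with 125 UMIs in 26 GelMA members. Without mixed cells Adamts18 was at 3.11, 466 and 2.29 CPM.

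The second comparison sets GelMA against the untreated wound, which by label differ in the gel. Gel, animal and piece of tissue cannot be told apart in it. Its largest differences were the GelMA values given above seen from the other side. In members, 761 genes (13.3%) were higher in GelMA and 735 (12.9%) lower, and without mixed cells 849 (15.7%) and 735 (13.6%). Of 13 interferon genes, 0 were higher and 7 lower, with a median log2 ratio of -0.78, and 1 was higher and 7 lower of 15 without mixed cells, with a median of -0.48. Of 18 adventitial genes, 0 were higher and 8 lower with a median of -0.52; without mixed cells 2 were higher and 6 lower with a median of -0.20. Of 15 glycolysis and hypoxia genes, 0 were higher and 6 lower, and 1 and 7 without mixed cells. The median of that list was -0.53, and -0.58 without mixed cells, but -0.12 in members with a Pi16 UMI. Of 11 deep dermal genes 5 were higher and 5 lower, and of 12 without mixed cells 6 and 3. The 4 cell cycle genes that differed were all lower, with a list median of -1.15 that was -2.09 without mixed cells. That last value rests on few GelMA UMIs, as given above for Cdk1, Kif11 and Ccnb2.

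Other genes that differed between GelMA and untreated members included Cthrc1, a secreted collagen triple helix protein of activated fibroblasts, at 44.9 CPM in GelMA and 212 CPM in untreated members, from 19 and 131 UMIs. Adamts16, a protease of the ADAMTS family, had 5 UMIs in GelMA and 49 in untreated members, and Dlgap5, a mitotic spindle protein, had 12 and 82. Sfrp2, a Wnt modulator of dermal fibroblasts, was at 66.2 CPM in GelMA and 206 CPM in untreated members. Egr1, an immediate early factor, was higher in GelMA, at 187 CPM against 45.3 CPM in untreated members, with 79 UMIs in 29 cells and 19 in a single one. Igfbp4, a carrier of insulin-like growth factors, was at 347 CPM in GelMA and 183 CPM in untreated members, and Lum, the proteoglycan lumican, at 144 and 61.5 CPM.

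The third comparison sets AN-GelMA against the untreated wound, which by label differ in gel and neutrophils together, with the same limit. Here 163 genes (2.85%) were higher in AN-GelMA and 251 (4.4%) lower, and without mixed cells 230 (4.25%) and 259 (4.78%). In thinned cells 439 were higher and 474 lower, and in members with a Pi16 UMI 312 and 434. Both other comparisons rest on the GelMA members, whose sum of 423030 UMIs is the smallest, so more counting error enters their counts past 1.5 times and the 3 comparisons are not ranked by these counts. Most genes of most lists lay within 1.5 times. Of 13 interferon genes 1 was higher and 0 lower, with a median of 0.28; of 18 adventitial genes 3 were higher and 0 lower, with a median of 0.29; of 15 glycolysis genes 0 were higher and 1 lower. The list with most genes past 1.5 times was that of immediate early and heat shock genes, with 6 of 19 higher and 1 lower and a median of 0.12. Jun and Jund, subunits of the AP-1 factor, were at 211 and 217 CPM in AN-GelMA members and at 125 and 118 CPM in untreated members. Fos and Junb, also AP-1 subunits, lay close together, at 113 and 82.1 CPM in AN-GelMA and 115 and 84.2 CPM in untreated members. Klf2, a transcription factor, was at 182 CPM in AN-GelMA and 107 CPM in untreated members.

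Among the genes named in AN-GelMA over untreated, Ptx3 and Timp1 were described above, and both were about as far above the untreated level without mixed cells, with log2 ratios of 1.21 and 1.13 against 1.01 and 1.13 for all members. Tppp3, a tubulin-binding protein, was at 376 CPM in AN-GelMA members (477 UMIs in 205 cells) and 162 CPM in untreated members (100 UMIs in 64 cells). Adamts15, a proteoglycan-cleaving protease, was at 567 and 278 CPM, and Chl1, a cell adhesion molecule, at 256 and 138 CPM. Serpinb2, a plasminogen activator inhibitor, was at 250.1 CPM in AN-GelMA and 87.4 CPM in untreated members, but 72 of its 317 AN-GelMA UMIs lay in 1 cell. Hyou1, a chaperone of the endoplasmic reticulum, had 96 UMIs in AN-GelMA and 20 in untreated members.

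Lower in AN-GelMA than in untreated members were Postn, at 381 and 638 CPM, and Apod, a lipid-binding apolipoprotein, at 234 and 418 CPM, of which 1 untreated cell held 48 of 258 UMIs. Cxcl14, a chemokine of skin, was at 63.9 CPM in AN-GelMA and 134 CPM in untreated members, a difference that turned round to a log2 ratio of 0.44 in members with a Pi16 UMI. Ckap2, Haus7, Ncapd2 and Kif20a, which all act in mitosis, were also on this side; Ckap2 was at 47.3 CPM in AN-GelMA and 126 CPM in untreated members. Of the 5 cell cycle genes on the fixed list, 2 were lower and 0 higher, with a median of -0.47. Idh2, the mitochondrial isocitrate dehydrogenase, was at 97.0 and 193 CPM.

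**Figure D5:**
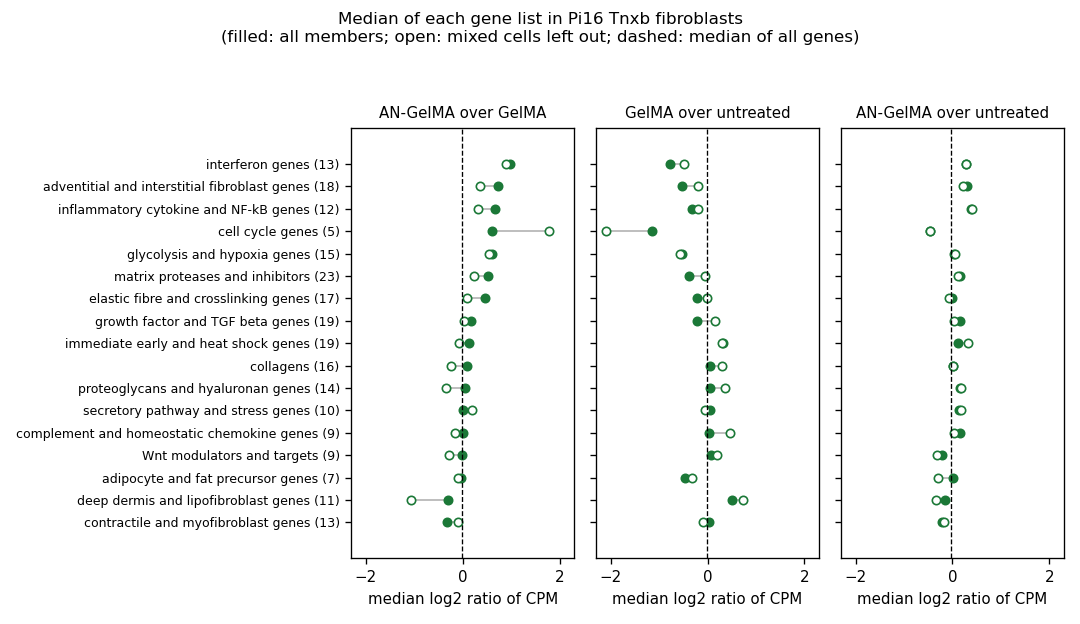
Median log2 ratio of CPM of each gene list with at least 5 measured genes (number in brackets) in Pi16 Tnxb fibroblasts, in the 3 comparisons between libraries, 1 per panel; filled points are all members, open points leave out mixed cells, and the dashed line is the median of all genes. The interferon list is at 0.97 for AN-GelMA over GelMA and at 0.28 for AN-GelMA over untreated, and in the third comparison all lists lie within 0.5 of 0.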

How the data were processed

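The authors deposited 1 matrix of UMI counts per library, which the file headers credit to Cell Ranger 10.0.0, on builds GRCm39 and mm39 per the submitters' processing notes. Barcodes were kept from 250 genes up if mitochondrial UMIs did not exceed 10%, 9612 of 9648 in AN-GelMA, 11302 of 11449 in GelMA and 6039 of 6073 in the untreated library; total UMIs were 14156692, 21613482 and 8945496. No doublet caller was run, and mixed cells were marked by 3 or more UMIs of another type's markers, an alternative added after the data were seen, as were those with Pi16-positive members only and without adipocyte markers. Counts of members were summed per library and divided by their total (Python 3.11.15, numpy 2.4.6, scipy 1.17.1). Genes with a mean of at least 50 CPM were compared as log2 ratios with conditional exact binomial intervals, and a ratio of 1.5 either way counts as higher or lower. A library at 0 was set to 3 UMIs, which gives a bound. The procedure was tested on simulated data. Each comparison names the 10 genes on either side with the interval bound nearest to 0 farthest from it, provided their CPM in members was at least that of cells outside the gate, plus up to 4 genes of each of 18 lists and, against other fibroblasts, 15 higher and 10 lower genes. The members and lists were chosen with earlier results of these data known. List genes Hmgb2 and Ly6c1 have no probe, and some genes that the rule names are not reported here. The motif search used the RefSeq promoter windows of GRCm38.p6, another build than the counts.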

Additional observations from a re-analysis of the deposited data

How the results depend on the processing

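No paired analysis was possible because no group has a second library, so leaving out a replicate was also not possible. The share of Pi16 Tnxb fibroblasts in AN-GelMA, GelMA and the untreated library was 7.36%, 1.36% and 5.15% with a minimum of 5 marker UMIs, 8.41%, 1.97% and 5.68% when Pi16 or Tnxb was required, 8.71%, 1.69% and 6.11% without cells that hold markers of 7 other types, 8.71%, 1.55% and 6.03% when hair-forming cells were also left out, 7.38%, 1.33% and 6.36% in thinned cells, and 39.7%, 25.4% and 31.3% of gate cells. With hair-forming cells out of the denominator the shares were 9.87% in AN-GelMA, 2.74% in GelMA and 7.36% in the untreated library. In AN-GelMA over untreated, the genes higher numbered 250 without cells of other types, 439 in thinned cells and 312 in members with a Pi16 UMI, and those lower 474 and 434 in the last 2. Without a minimum level the counts higher and lower were 2282 and 7907 for AN-GelMA over GelMA, 5384 and 2514 for GelMA over untreated and 2062 and 5011 for AN-GelMA over untreated; the median of all genes then lay at -0.41, 0.44 and -0.09, since a library at 0 was set to 3 UMIs and 1 UMI is worth most in GelMA. In members with a Pi16 UMI the sign turned for Cdk1 (-0.39), Kif11 (-0.093) and the cell cycle median (-0.14) in AN-GelMA over GelMA, and for Cxcl14 (0.44) in AN-GelMA over untreated; the cause was not tested. Of 54 list medians 15 had another sign in those members, and apart from the cell cycle median these lay within 1.5 times over all members; the adipocyte and fat precursor median in GelMA over untreated was 0.64 in place of -0.47, and that of collagens -0.38 in place of 0.05. Of 1713 alternative values of 214 single-gene ratios, 1451 moved by less than counting error, 259 moved by more and 3 changed sign. The GelMA members, with 175 cells left without mixed cells, limit every comparison that uses them.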
